A study of Mus musculus with 45 samples.

Results

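Gene expression was compared between scaffolds taken from mice with 4T1 tumors and scaffolds taken from tumor-free control mice. The comparison rests on 6 libraries, 3 per group, out of 45 samples in the series, and on 19153 genes out of 55367 gene symbols. A gene entered when it had more than 10 counts over the 6 libraries, a rule that reads no difference between the groups. All mice were young adult female BALB/c animals carrying porous polycaprolactone scaffolds under the skin of the back. The tumor-bearing mice had received 4T1 cells into the mammary fat pad, and scaffolds were removed on day 14, whereas the control mice bore scaffolds but received no cancer cells. The 4T1 line is a triple negative mouse mammary carcinoma line that spreads to the lung without help, and 67NR (which does not spread) and 4T07 (which invades but does not form colonies) are sister lines from the same original tumor. The labels give each library its own number, and the numbers 1, 2 and 3 (control) and 34, 35 and 36 (4T1) are used here as names. The study describes separate mice per condition, and the labels do not say which mouse gave which library.

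A polymer implant placed under the skin is met by a foreign body response, in which macrophages coat the material and fuse into giant cells while fibroblasts and new vessels fill the pores. Tumors that secrete colony stimulating factors drive the bone marrow to release neutrophils before they are mature, and these cells travel in blood to distant tissues. Immature neutrophils still transcribe the genes of their granule proteins, whereas mature neutrophils mainly express receptors, S100 proteins and inflammatory mediators. In bulk tissue a lower level of a marker can mean fewer cells of a type or less RNA per cell, and these cannot be told apart.

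Each library was a 3' tag library, in which a read marks the end of a transcript. The 6 libraries held between 4767440 and 6352761 counts, and the 12 scaffolds of all 4 groups up to 8175380. Levels are given in CPM (a gene's counts divided by the library total, times 1e6), and the detection floor was set at 3 counts, or 0.472 to 0.629 CPM. Fold changes come from the test model, which rescales the library totals (TMM), so they can differ from ratios of mean CPM. Genes that mark macrophages and giant cells on implants were abundant in all 6 libraries, among them Gpnmb (6407, 7453 and 7821 CPM in controls 1, 2 and 3 and 8364, 8176 and 8765 CPM in 4T1 libraries 34, 35 and 36) and Acp5 (1059, 855 and 1025 CPM against 790, 817 and 803 CPM). No libraries were identical, and libraries 1 and 35 stood farthest from the others of their group, with a chi-square per degree of freedom of 19.5 and 22.4 between control 1 and the other controls and of 6.07 between controls 2 and 3. The same quantity was 36.0 and 32.5 between library 35 and the other 4T1 libraries and 8.75 between libraries 34 and 36.

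Summed marker levels differed among libraries of the same group. The summed level of 25 skeletal muscle genes was 60.8, 1021 and 990 CPM in controls 1, 2 and 3 and 166.5, 448 and 152 CPM in 4T1 libraries 34, 35 and 36. Muscle RNA was therefore lowest in control 1 and highest in the other controls. The summed level of 22 mature neutrophil genes was 1121, 4377 and 1278 CPM in the controls and 4193, 5541 and 3489 CPM in the 4T1 libraries, so that control 2 lay within the range of the 4T1 scaffolds. Markers of mammary tumor epithelium did not separate the groups, with summed levels of 59.2, 59.5 and 138 CPM in the controls and 95.5, 106 and 51.9 CPM in the 4T1 libraries over 16 markers. Of these markers, 12 were tested and none was called, and 4 were too low to test.

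**Figure D1:**
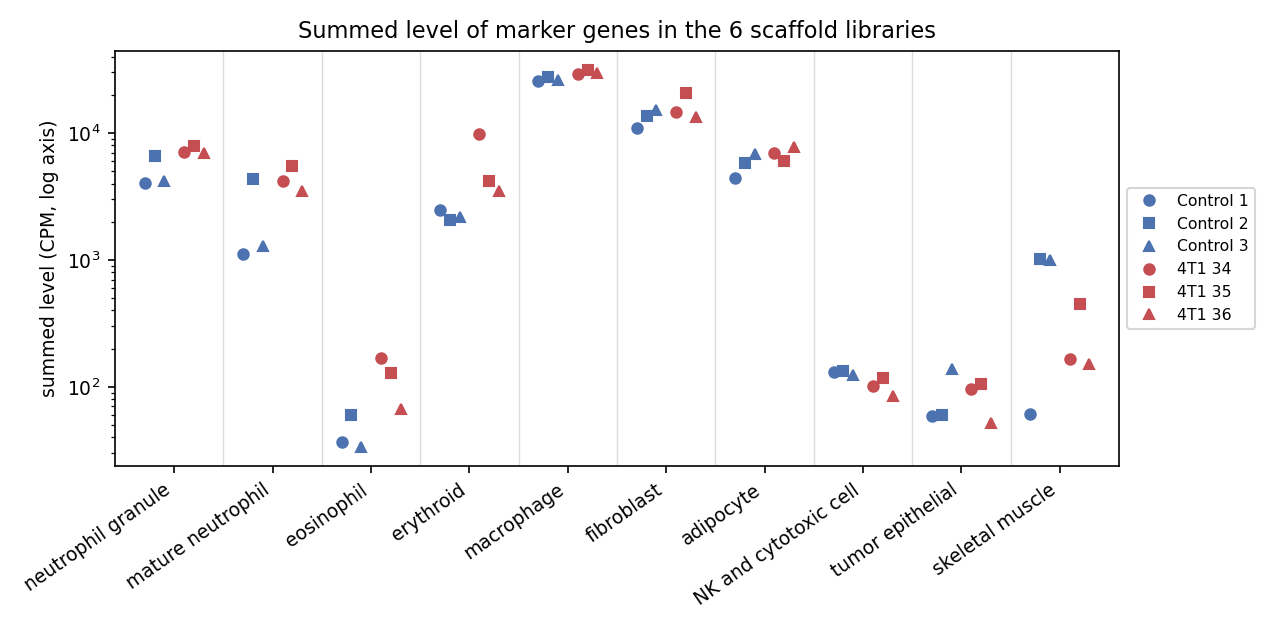
Summed level (CPM, log axis) of the members of 10 marker lists in the 3 control and the 3 4T1 scaffold libraries, 1 point per library. Muscle markers spread over more than the distance between the groups, and control 2 lies among the 4T1 libraries for mature neutrophil markers. Neutrophil granule, eosinophil, erythroid and macrophage markers are higher in all 3 4T1 libraries than in any control, and cytotoxic cell markers are lower.

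With all 12 scaffolds in one model, 5 genes differed more than 2-fold between 4T1 and control scaffolds at an adjusted p below 0.10 (edgeR quasi-likelihood test, Benjamini-Hochberg adjustment), which is 0.0261% of the genes tested. The clock gene Per3, the interferon-induced transmembrane protein gene Ifitm1 and Pik3r3, a regulatory subunit of phosphoinositide 3-kinase, rose. Spon2, a secreted matrix protein that binds bacterial products and integrins, and Slc39a2, a zinc importer, fell. In all, 2560 genes had an unadjusted p under 0.05, of which 1363 were higher and 1197 lower in 4T1 scaffolds, and the median log2 fold change of all genes was 0.012.

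The Per3 level was 9.23, 11.2 and 14.0 CPM in controls 1, 2 and 3 and 26.6, 33.6 and 27.7 CPM in 4T1 libraries 34, 35 and 36. The lowest 4T1 library was thus above the highest control, and the means were 11.5 ± 2.40 and 29.3 ± 3.75 CPM (SD, n = 3). The rise was 2.34-fold (log2 fold change 1.23, standard error 0.17, adjusted p = 0.048). Per3 kept its call when any of 5 libraries was left out, but without control 1 the adjusted p was 0.139.

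Ifitm1, which encodes a membrane protein that restricts virus entry and is induced by interferon, had levels of 9.44, 22.8 and 8.66 CPM in the controls and 51.8, 93.8 and 57.1 CPM in the 4T1 libraries. The groups did not overlap, with means of 13.6 ± 7.95 and 67.6 ± 22.9 CPM (SD, n = 3). Its 4.51-fold rise was the largest of the 5 genes (log2 fold change 2.17, standard error 0.32, adjusted p = 0.0536). Control 2, the control with the most mature neutrophil RNA, also had the highest Ifitm1 of the controls, and the part of neutrophils in this result was not tested. The neighbors Ifitm2 and Ifitm3, chosen after their values were seen, did not pass the test. Ifitm2 had 348, 252 and 198 CPM in the controls and 284, 373 and 257 CPM in the 4T1 libraries, and Ifitm3 had 451, 330 and 266 CPM against 249, 183 and 234 CPM (log2 fold change -0.78, adjusted p = 0.254). Reads of near-identical family members can be split between these genes.

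Pik3r3 had 10.3, 8.08 and 7.71 CPM in the controls and 20.4, 35.6 and 20.1 CPM in the 4T1 libraries. The 4T1 level was highest in library 35, and no library of one group reached the other (8.69 ± 1.39 against 25.4 ± 8.87 CPM, SD, n = 3). The rise was 2.67-fold (log2 fold change 1.41, standard error 0.23, adjusted p = 0.0627).

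Spon2 had 25.0, 21.9 and 25.5 CPM in the controls and 11.4, 7.46 and 6.64 CPM in the 4T1 libraries. Each 4T1 library was thus below the lowest control, with means of 24.1 ± 1.97 and 8.51 ± 2.56 CPM (SD, n = 3). Spon2 fell 3.06-fold (log2 fold change -1.61, standard error 0.25, adjusted p = 0.0627). Slc39a2 had 67.1, 52.6 and 64.9 CPM in the controls and 30.7, 26.3 and 31.4 CPM in the 4T1 libraries, again with no overlap. It fell 2.27-fold (log2 fold change -1.18, standard error 0.19, adjusted p = 0.0627).

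These 4 calls depended on single libraries more than that of Per3. Ifitm1 lost its call without library 35 (adjusted p = 0.135), control 1 (0.197) or control 3 (0.231), and Spon2 lost it without the same libraries (0.166, 0.197 and 0.231). Pik3r3 passed without library 34 or 36 and not without control 1 (0.139), control 2 (0.112), control 3 (0.282) or library 35 (0.158). Slc39a2 passed without control 2 or library 36 and not without control 1 (0.197), control 3 (0.231), library 34 (0.15) or library 35 (0.158). With the 6 libraries alone in the model, which leaves fewer libraries to estimate the spread, edgeR called 0 genes, the lowest adjusted p was 0.173, and 1840 genes had an unadjusted p under 0.05. Adding the muscle level of each library as a covariate kept all 5 calls, with adjusted p from 0.018 for Per3, Ifitm1 and Slc39a2 to 0.0559 for Pik3r3 and Spon2.

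**Figure D2:**
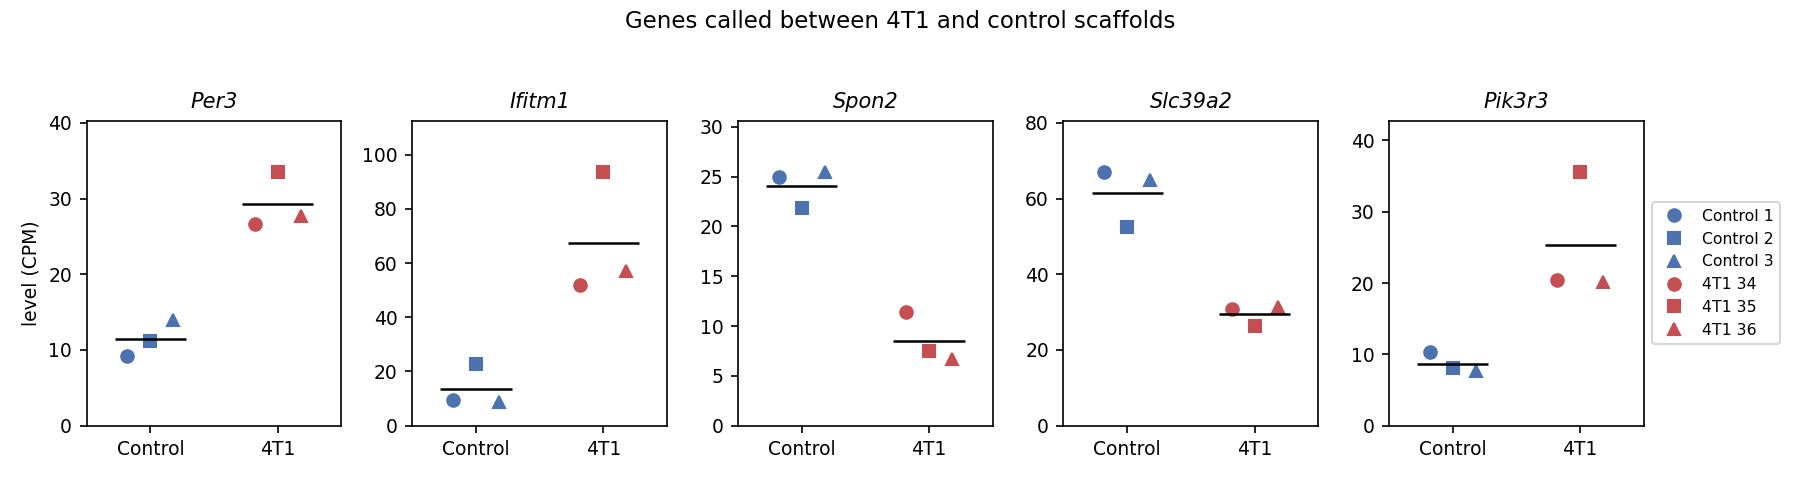
Level (CPM) of Per3, Ifitm1, Pik3r3, Spon2 and Slc39a2 in each control and 4T1 scaffold library, with 1 point per library and a line at the group mean. The 3 points of a group stay on 1 side of the 3 points of the other for all 5 genes.

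Next came genes with a low p and no overlap between the groups that did not pass the adjusted threshold. Among those higher in 4T1 scaffolds was Gclc, the catalytic subunit of the enzyme that starts glutathione synthesis, at 42.4, 53.4 and 54.6 CPM in the controls and 98.4, 179 and 85.6 CPM in the 4T1 libraries (log2 fold change 1.14, standard error 0.21, adjusted p = 0.116). The largest differences belonged to granule proteins. Ngp, a secondary granule protein of neutrophils, had 1.68, 5.54 and 0.630 CPM in the controls and 136, 43.6 and 26.2 CPM in the 4T1 libraries (log2 fold change 4.56, standard error 0.86, adjusted p = 0.133). Prg2, the major basic protein of eosinophil granules, had 1.47, 0.475 and 1.10 CPM against 85.9, 30.4 and 9.70 CPM (log2 fold change 5.28, standard error 1.02, adjusted p = 0.157). Both were highest in library 34. Stfa2, a stefin of neutrophils with near-identical copies that can share its reads, had 0.839, 3.48 and 0 CPM against 14.7, 8.39 and 24.1 CPM (log2 fold change 3.30, standard error 0.65, adjusted p = 0.158). The activin subunit gene Inhbb, Agfg2 and Mboat7, a lysophospholipid acyltransferase gene, had log2 fold changes of 0.95, 0.99 and 0.86, all with an adjusted p of 0.163.

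Of the genes lower in 4T1 scaffolds, Mmp13, a collagenase, had 248, 265 and 228 CPM in the controls and 120, 118 and 154 CPM in the 4T1 libraries (log2 fold change -1.03, standard error 0.18, adjusted p = 0.116). Slfn2, a regulator of lymphocyte and myeloid quiescence, had 216, 290 and 235 CPM against 171, 111 and 134 CPM (log2 fold change -0.94, adjusted p = 0.116). Cox7a1, the heart and muscle form of a cytochrome c oxidase subunit, had 21.0, 39.3 and 46.4 CPM against 13.4, 12.1 and 17.6 CPM (log2 fold change -1.41, adjusted p = 0.116). Control 1, which had the least muscle RNA, was the lowest control for Cox7a1, and library 35, which had the most of the 4T1 libraries, was the lowest 4T1 library. With muscle as a covariate the log2 fold change of Cox7a1 was -1.28 (adjusted p = 0.0665). The part of muscle content in this fall was not tested. The others lower in each 4T1 library were Fggy (log2 fold change -0.85, adjusted p = 0.158), the ketone body enzyme gene Bdh1 (-1.03, 0.163), the citric acid cycle gene Idh3b (-0.83, 0.163), the ribosomal protein gene Rps28 (-0.75, 0.163) and Gm4610, a predicted gene (-1.01, 0.116). Some of these genes passed when 1 library was left out. Without library 36, Gclc, Ngp, Prg2, Agfg2, Mboat7, Mmp13, Cox7a1, Idh3b (each with an adjusted p of 0.0483) and Gm4610 (0.087) did. Slfn2 passed without library 34 (0.0805), Cox7a1 without control 1 (0.0569), and Ngp, Gm4610 and Bdh1 without control 2 (0.083, 0.0353 and 0.0785).

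The signature of 9 genes that the study built was chosen on these scaffolds, so its direction here is not independent evidence. Ifitm1 rose and Spon2 fell, and the other 7 genes did not pass. Soga1 had 19.3, 19.5 and 20.3 CPM in the controls and 33.6, 32.8 and 30.2 CPM in the 4T1 libraries (log2 fold change 0.59, adjusted p = 0.205). The spread within each group was small for this gene, and the fold was under 2. Slc1a3, a glutamate and aspartate transporter gene, was also higher in each 4T1 library, with 9.02, 14.4 and 14.6 CPM against 21.2, 30.0 and 20.5 CPM (log2 fold change 0.79, adjusted p = 0.206). Dhx9, an RNA helicase gene, had 166, 164 and 170 CPM against 120, 126 and 130 CPM (log2 fold change -0.53, adjusted p = 0.186), and Pja2, a ubiquitin ligase gene, had 95.9, 95.2 and 105 CPM against 90.8, 84.7 and 80.8 CPM (-0.33, 0.317). The groups overlapped for Dusp12, Fhl1 and Ndufs1, with log2 fold changes of -0.14, -0.61 and -0.04 (adjusted p = 0.684, 0.486 and 0.919).

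Per3 was the only called member of a list of 16 core clock genes. The circadian clock is a feedback loop in which Clock and Arntl (Bmal1) activate Per and Cry genes through E-box elements, Per and Cry proteins shut that activation down, and the Nr1d and Bhlhe repressors and the proline- and acid-rich factors Dbp, Tef and Hlf, which bind D-box elements, add further arms. The hour of day at which tissues were taken is not given in the labels. Among promoters in RefSeq (GRCm38.p6), 14 of the 16 genes have an entry. In the 250 bases before the start, the E-box letters CACGTG, the same on both strands, occur in 1978 of 32851 promoters (6.02%). Among clock genes they occur in 6 of 19 promoters, which belong to 5 genes. The D-box letters TTATGTAA, or TTACATAA on the other strand, occur in 269 promoters (0.819%) and among the clock genes in that of Per3 alone, at 2 places. A match describes the letters and is no evidence of a site in use. The windows of 30 bases below, 5′ to 3′ on the strand of the gene, belong to clock genes whose scaffold levels are given next, with the motif in capitals. They are a selection, and the E-box windows of Bhlhe41, of Ciart and of another Tef promoter are not shown.
Per3 (chr4:151044852-151044881, minus strand, D-box): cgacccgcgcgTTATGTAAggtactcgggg
Per3 (chr4:151044805-151044834, minus strand, D-box): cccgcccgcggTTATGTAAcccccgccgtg
Per1 (chr11:69098772-69098801, plus strand, E-box): gcacccaagtcCACGTGcagggatgtgtgt
Cry1 (chr10:85185096-85185125, minus strand, E-box): gtgccggtggtCACGTGgggtgcatgccgc
Tef (chr15:81802535-81802564, plus strand, E-box): tgctgtggctcCACGTGctgcagctggcac

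Of the 16 clock genes, 8 were higher in each 4T1 library than in any control and 0 were lower in the same sense, against 12.7% and 5.60% of all genes tested. Their median log2 fold change was 0.63, and the count of 8 became 8 or 9 when any of the 6 libraries was left out. Only Per3 passed the test, and the other clock genes are given as values. The members named here besides Per3, Nr1d2, Bhlhe41 and Clock were chosen after their values were seen. Per1 had 1.05, 3.64 and 4.25 CPM in the controls and 7.84, 12.5 and 5.21 CPM in the 4T1 libraries (log2 fold change 1.35, standard error 0.43, adjusted p = 0.231). Per2 had 2.10, 2.22 and 3.15 CPM against 6.69, 34.9 and 5.93 CPM (log2 fold change 2.49, standard error 0.59, adjusted p = 0.186), so that library 35 carried most of its mean. Without library 36 Per2 passed, with a log2 fold change of 2.86 (adjusted p = 0.0936). Cry1 was even across libraries, with 10.1, 9.50 and 10.1 CPM against 16.2, 16.8 and 16.9 CPM (log2 fold change 0.63, standard error 0.19, adjusted p = 0.221).

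Most of the other clock genes named here lay on the same side as the Per genes. Tef had 38.2, 43.2 and 53.8 CPM in the controls and 111, 68.4 and 97.3 CPM in the 4T1 libraries (log2 fold change 0.92, standard error 0.19, adjusted p = 0.163). Without library 35, its log2 fold change was 1.13 and its adjusted p was 0.0438. Hlf had 1.26, 1.90 and 3.78 CPM against 4.90, 8.58 and 4.67 CPM (log2 fold change 1.23, adjusted p = 0.222), and Cry2 had 3.99, 5.70 and 7.71 CPM against 10.1, 15.7 and 10.8 CPM (log2 fold change 0.94, adjusted p = 0.201). The repressor gene Bhlhe41 had 65.4, 103 and 98.5 CPM against 118, 139 and 139 CPM (log2 fold change 0.46, adjusted p = 0.389). The groups overlapped for Nr1d1 (log2 fold change 1.25, adjusted p = 0.239) and Nr1d2 (0.35, 0.433). Arntl and Clock had the opposite sign, with overlapping groups and log2 fold changes of -0.24 for Arntl (adjusted p = 0.668) and -0.32 for Clock (adjusted p = 0.444). With Dbp they were the 3 members of the list with a negative log2 fold change, and 13 were positive. Dbp was near the detection floor, with 0.839, 0.950 and 1.57 CPM in the controls and 0.163, 0.932 and 0.898 CPM in the 4T1 libraries.

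**Figure D3:**
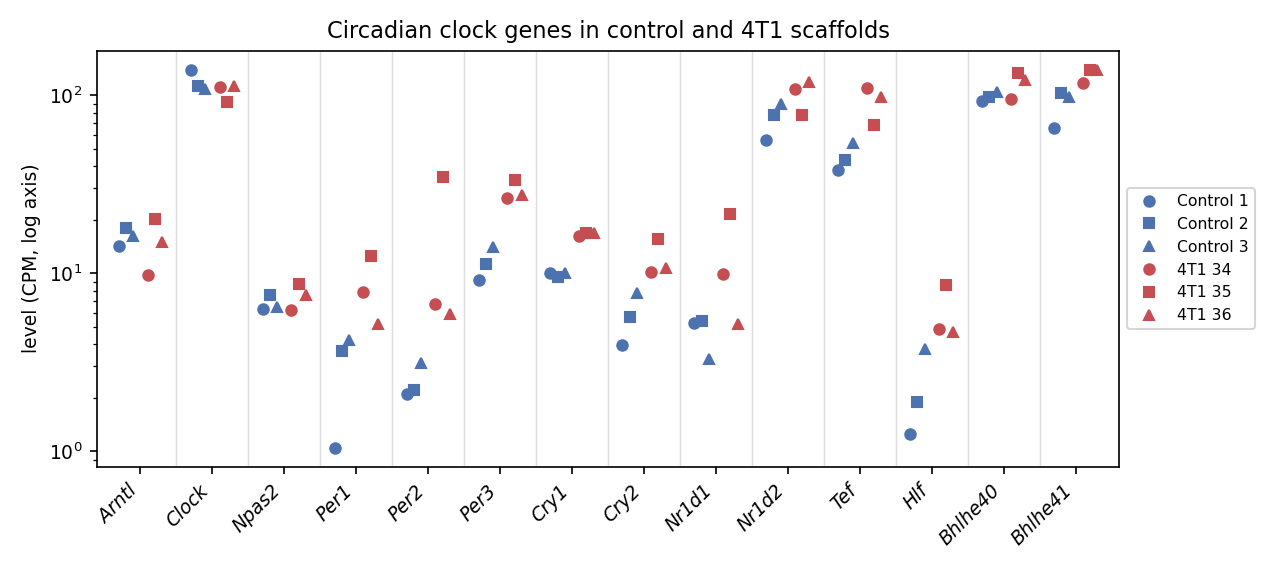
Level (CPM, log axis) of 14 circadian clock genes in each control and 4T1 scaffold library, 1 point per library. Per3, Per1, Per2, Cry1, Cry2, Tef, Hlf and Bhlhe41 have all 3 4T1 points above all 3 control points, and Arntl and Clock do not.

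Of 47 gene lists, 45 held no called member. Their members are therefore described by how many lay apart, meaning that the 3 libraries of one group were all above or all below those of the other, beside the 12.7% (higher) and 5.60% (lower) of all genes tested. Lying apart was read from CPM, without the TMM scaling of the fold changes, and the scales differ. Ndufs1 averaged 133 CPM in controls and 140 CPM in 4T1 libraries, with a log2 fold change of -0.04. The part of this scaling in the counts of higher and lower genes was not tested. With 1 library left out, fewer values have to agree, and 17.1% to 22% of all genes lay apart as higher and 8.35% to 11% as lower.

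**Figure D4:**
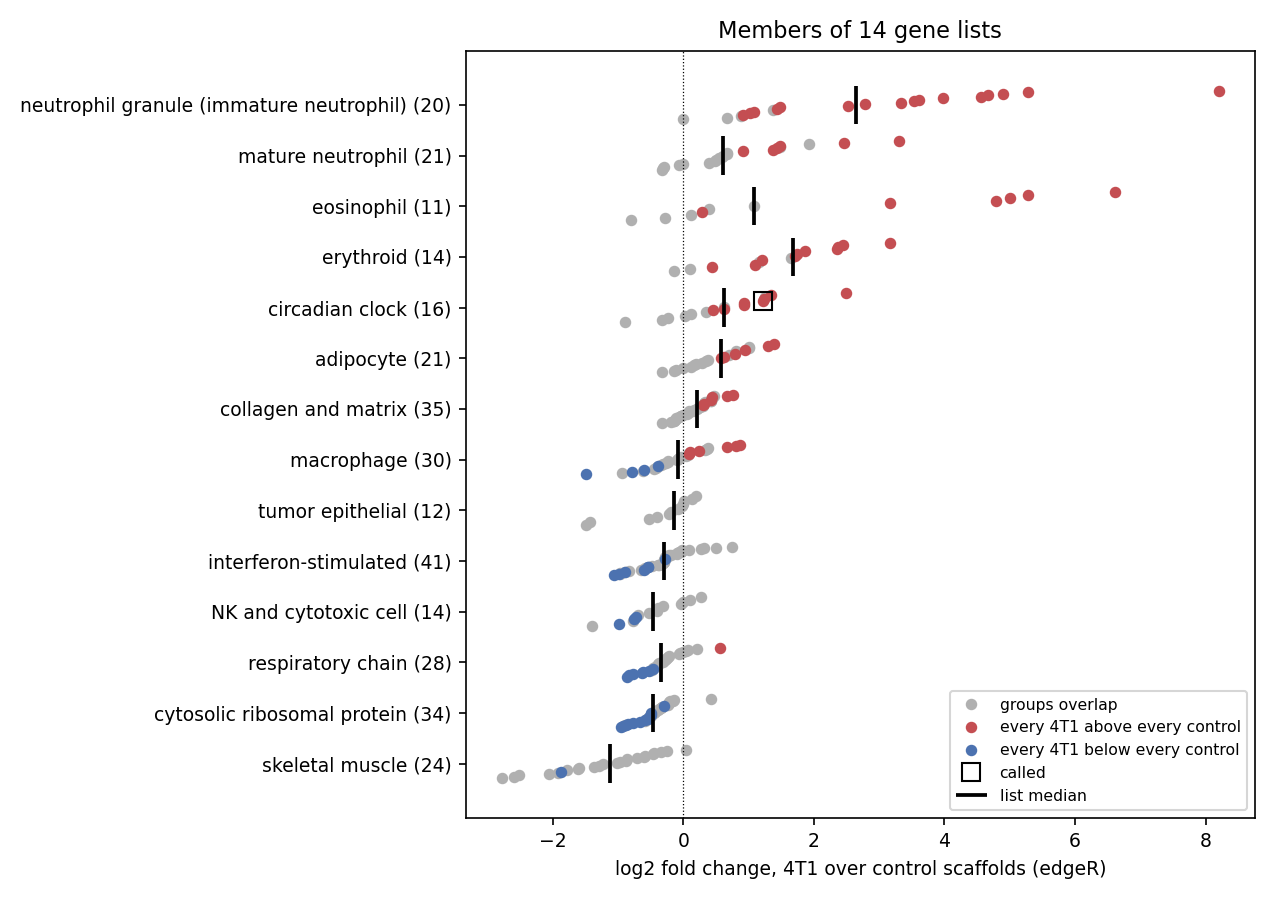
Log2 fold change (4T1 over control scaffolds) of each tested member of 14 gene lists, 1 point per gene, with a bar at the list median. Grey points are genes whose groups overlap, colored points are genes whose groups do not, and squares are called genes. Granule, erythroid, eosinophil and clock members lie mostly above 0, and ribosomal and interferon-stimulated members mostly below.

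Genes of neutrophil granules were the list with the largest share of members apart when all 6 libraries were used, though not without control 2, where mature neutrophil genes had 81.0% against 80%, or without control 3, where erythroid genes had 85.7% against 85%. All 20 were tested, 16 were higher in each 4T1 library than in any control, 0 were lower, and the median log2 fold change was 2.65. None was called by edgeR, although 16 had an unadjusted p under 0.05, and the lowest adjusted p was the 0.133 of Ngp. With DESeq2, which the study used and which was run here as an alternative, 5 of the granule genes named here passed, namely Ngp (adjusted p = 0.00217), Camp (0.0205), Mpo (0.00349), Lcn2 (0.0135) and Ltf (0.0358). Mpo, Elane and Lcn2, like Ly6g and Cxcr2 among the mature markers, were named after their values were seen. The primary granule genes Mpo and Elane, which are transcribed in the marrow, were near or at 0 in the controls. Mpo had 1.05, 0.633 and 0.787 CPM in the controls and 50.4, 9.51 and 7.18 CPM in the 4T1 libraries (log2 fold change 4.66, standard error 1.09, adjusted p = 0.186). Elane had 0 counts in the 3 controls and 12.9, 4.85 and 0.898 CPM in the 4T1 libraries (adjusted p = 0.203). Secondary granule genes followed the same order of libraries. Camp had 1.26, 3.48 and 0.944 CPM against 45.4, 18.3 and 13.6 CPM, and Ltf, encoding lactoferrin, had 2.31, 1.11 and 1.10 CPM against 28.2, 10.8 and 9.16 CPM. Lcn2, encoding an iron-binding lipocalin, had 2.94, 6.18 and 4.41 CPM against 42.3, 28.2 and 15.3 CPM (log2 fold change 2.52, standard error 0.57, adjusted p = 0.179). Library 34 was the highest for each of these 5 genes, and the count of members apart was between 16 and 18 when each library was left out in turn.

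Genes of mature neutrophils overlapped more often between the groups, and control 2 was the highest control for the markers named here except Mmp9. S100a8, a subunit of calprotectin, had 274, 843 and 161 CPM in the controls and 1619, 1086 and 1027 CPM in the 4T1 libraries, and S100a9 had 141, 811 and 83.0 CPM against 1148, 1151 and 832 CPM. The log2 fold change was 1.43 for S100a8 (adjusted p = 0.302) and 1.49 for S100a9 (adjusted p = 0.332). Ly6g, the surface marker used to define neutrophils in mice, had 1.05, 7.13 and 1.42 CPM against 26.4, 25.7 and 7.36 CPM (log2 fold change 2.46, adjusted p = 0.204). The groups overlapped for the chemokine receptor gene Cxcr2, with 7.97, 35.2 and 5.19 CPM against 21.7, 29.8 and 25.5 CPM (log2 fold change 0.55, adjusted p = 0.644), and for the gelatinase gene Mmp9, with 304, 628 and 748 CPM against 681, 1432 and 769 CPM (0.66, 0.370). Of 21 tested mature neutrophil genes, 6 lay apart as higher and 0 as lower, with a median log2 fold change of 0.61. Without control 2, 17 lay apart as higher and the median was 1.73, while 17.8% of all genes then lay apart as higher. Under the same omission Cxcr2, S100a9 and Stfa2 passed the test, with log2 fold changes of 1.83, 3.06 and 5.24 and adjusted p of 0.032, 0.0353 and 0.0235.

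Among genes of other blood cells, none was called. Of 11 tested eosinophil genes, 6 lay apart as higher and 0 as lower (median log2 fold change 1.08). The summed level of all 12 listed genes was 36.5, 59.5 and 33.5 CPM in the controls and 169, 127 and 66.4 CPM in the 4T1 libraries, with library 34 the highest. Epx, the eosinophil peroxidase gene, was named after its values were seen and had 0.420, 0 and 0 CPM against 8.33, 2.98 and 0.718 CPM (adjusted p = 0.222), the controls holding 2 counts in all. Without control 2 the median of the list was 1.90, and Cd300lf, an inhibitory receptor gene of myeloid cells, passed (log2 fold change 1.90, adjusted p = 0.0353). With all libraries its groups overlapped, and library 35 was the highest (11.7, 35.2 and 9.13 CPM against 32.5, 68.3 and 29.8 CPM). The groups also overlapped for the list members Ccr3 and Siglecf. Ccr3 had 11.1, 8.08 and 8.34 CPM against 9.14, 8.21 and 7.18 CPM (log2 fold change -0.28, adjusted p = 0.662). Siglecf had 5.03, 7.28 and 6.93 CPM against 12.1, 4.10 and 11.0 CPM (0.39, 0.649).

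Of 14 erythroid genes, 10 lay apart as higher and 0 as lower, with a median log2 fold change of 1.68. Hba-a1, an alpha globin gene whose reads can be shared with Hba-a2, had 381, 334 and 393 CPM in the controls and 2593, 804 and 656 CPM in the 4T1 libraries (log2 fold change 1.75, standard error 0.66, adjusted p = 0.286). The beta globin gene Hbb-bs had 985, 863 and 905 CPM against 3185, 1777 and 1492 CPM (log2 fold change 1.10, adjusted p = 0.382). Klf1, an erythroid transcription factor gene active in nucleated precursors, was chosen after its values were seen and had 1.89, 1.27 and 0.787 CPM against 16.5, 4.29 and 1.98 CPM. Without library 34 the same number of erythroid genes, 10, lay apart as higher and the median was 0.841. Platelet genes rested on library 34 to a larger extent. Of 9 tested, 4 lay apart as higher and 1 as lower with a median log2 fold change of 0.76, and without library 34 the median was -0.050. Ppbp, a platelet chemokine gene, had 7.34, 9.50 and 5.98 CPM against 38.2, 13.2 and 9.52 CPM (log2 fold change 1.30, adjusted p = 0.449), whereas the groups overlapped for the platelet factor gene Pf4 (log2 fold change -0.04, adjusted p = 0.965).

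Interferon-stimulated genes leaned the other way from Ifitm1. Of 41 tested, 0 lay apart as higher and 7 as lower, 10 were lower with an unadjusted p under 0.05, and the median log2 fold change was -0.30. Against the same controls, the median of this list was -0.27 for 67NR and -0.16 for 4T07 scaffolds, so a lower median was not particular to 4T1. The interferon genes named here besides Rsad2 and Psmb8 were chosen after their values were seen. Psmb8, an immunoproteasome subunit gene, had 91.2, 107 and 98.5 CPM in the controls and 64.7, 68.1 and 78.1 CPM in the 4T1 libraries (log2 fold change -0.61, standard error 0.15, adjusted p = 0.186). Cxcl9, a chemokine gene induced by interferon gamma, had 27.9, 29.3 and 22.4 CPM against 13.9, 17.7 and 12.4 CPM (log2 fold change -0.98, standard error 0.26, adjusted p = 0.203). Isg15 had 96.3, 104 and 80.4 CPM against 35.6, 80.6 and 41.3 CPM (log2 fold change -0.98, adjusted p = 0.200), and Irf7, which drives type I interferon transcription, had 38.4, 40.9 and 26.6 CPM against 19.4, 27.0 and 12.9 CPM (-0.97, 0.186). Library 35 was the highest 4T1 library for Cxcl9, Isg15 and Irf7. Without it, 24 of the 41 genes lay apart as lower, the median was -0.63, and 9.41% of all genes lay apart as lower. Isg15 then passed the test, with a log2 fold change of -1.37 (adjusted p = 0.097). For the antiviral gene Rsad2 the groups overlapped, with 248, 322 and 275 CPM against 302, 296 and 163 CPM.

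Of 14 genes of cytotoxic lymphocytes, none was called, 0 lay apart as higher and 3 as lower, and the median log2 fold change was -0.47. Leaving out library 34, library 35 or control 1 gave 5 apart as lower. Gzma, encoding granzyme A, had 40.1, 41.2 and 29.9 CPM in the controls and 22.9, 20.5 and 18.1 CPM in the 4T1 libraries (log2 fold change -0.98, standard error 0.22, adjusted p = 0.177). Ccl5, a chemokine gene of cytotoxic cells, had 28.7, 34.5 and 35.3 CPM against 21.7, 24.8 and 18.3 CPM (log2 fold change -0.73, adjusted p = 0.268). The groups overlapped for Ncr1, an activating receptor gene of natural killer cells, with 17.4, 19.8 and 23.8 CPM against 22.7, 35.1 and 23.0 CPM (log2 fold change 0.28, adjusted p = 0.567), and for the perforin gene Prf1 (-0.39, 0.566). Among 28 chemokine genes, 2 lay apart as higher and 4 as lower (median -0.27). Without control 2 these counts were 6 and 8, beside 17.8% and 8.35% of all genes. Cxcl14, which fibroblasts and epithelia make, and which was chosen after its values were seen, had 230, 201 and 190 CPM against 148, 144 and 133 CPM (log2 fold change -0.68, standard error 0.16, adjusted p = 0.186). Ccl6, a myeloid chemokine gene, had 1134, 1017 and 910 CPM against 835, 669 and 796 CPM (log2 fold change -0.53, adjusted p = 0.254). The medians of T cell, B cell and dendritic cell genes were -0.12, -0.21 and -0.11 over 24, 13 and 18 genes. The B cell value rested on library 34, without which 8 of the 13 lay apart as lower, against 0 with all libraries, and the median was -1.17. The 14 genes of MHC class I presentation had a median of 0.19, with 2 apart as higher and 1 as lower, and without library 35 the median was -0.12.

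Among macrophage genes, 6 of 30 lay apart as higher and 4 as lower, and the median log2 fold change was -0.08. Apoe, the lipid carrier of lipid-laden macrophages, had 2505, 2658 and 2108 CPM in the controls and 4196, 7336 and 3134 CPM in the 4T1 libraries (log2 fold change 0.87, standard error 0.25, adjusted p = 0.221). The receptor gene Mertk, which serves uptake of dying cells, had 46.6, 111 and 96.2 CPM against 180, 126 and 170 CPM (log2 fold change 0.81, adjusted p = 0.221). In the other direction lay Retnla, a gene of interleukin 4-activated macrophages, with 183, 99.4 and 99.2 CPM against 97.5, 73.5 and 73.1 CPM (log2 fold change -0.78, adjusted p = 0.276). Timd4, a marker of resident macrophages, had 5.03, 4.28 and 3.31 CPM against 3.10, 1.12 and 0.539 CPM (-1.48, 0.277). Mertk, Retnla and Timd4 were chosen after their values were seen. Gpnmb had a log2 fold change of 0.11, and the groups overlapped for Lgals3 (-0.26) and Cd63 (-0.31). Giant cell and osteoclast-like genes had a median of 0.01 over 15 genes, with 1 apart as higher and 3 as lower, which include Mmp13 and Acp5 (log2 fold change -0.41, adjusted p = 0.337).

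Of 35 collagen and matrix genes, 6 lay apart as higher and 0 as lower, with a median log2 fold change of 0.22. The number apart as higher was 14 without control 3 and 12 without library 36, where 20.8% and 22% of all genes lay apart as higher. The examples Col4a1, Col11a1 and Lox were chosen after their values were seen. Col4a1, a basement membrane collagen gene, had 215, 464 and 440 CPM in the controls and 479, 991 and 587 CPM in the 4T1 libraries (log2 fold change 0.76, adjusted p = 0.257). Lox, the collagen crosslinking enzyme gene, had 104, 115 and 97.8 CPM against 154, 159 and 149 CPM (log2 fold change 0.43, adjusted p = 0.278), and Col11a1 had a log2 fold change of 0.67 (adjusted p = 0.221). The groups overlapped for Col1a2 (0.30). Over 30 matrix protease and inhibitor genes the median was 0.01, with 4 apart as higher and 2 as lower. The medians of 30 fibroblast, 24 endothelial and 36 cell cycle genes were 0.04, 0.15 and 0.01, and the cell cycle median was -0.20 without library 34.

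Adipocyte genes lay apart as higher in 6 of 21 cases and as lower in 0, with a median log2 fold change of 0.58. The number was 11 without control 3 and 10 without library 35, where 20.8% and 18.3% of all genes lay apart as higher. Without library 36 the median was 0.27. Adipoq, Lipe and Pck1 were chosen after their values were seen. Adipoq, encoding the fat hormone adiponectin, had 62.7, 50.8 and 65.5 CPM in the controls and 82.3, 135 and 77.4 CPM in the 4T1 libraries (log2 fold change 0.58, standard error 0.30, adjusted p = 0.416). Lipe, encoding hormone-sensitive lipase, had 23.1, 20.4 and 33.2 CPM against 39.8, 82.4 and 39.3 CPM (log2 fold change 0.94, adjusted p = 0.229), and Pck1, encoding a key enzyme of glyceroneogenesis in fat, had 7.55, 8.87 and 11.8 CPM against 12.9, 43.1 and 25.9 CPM (1.40, 0.246). Library 35 was the highest for all 3 genes. The groups overlapped for Lpl, which macrophages make too, with 2751, 4188 and 4381 CPM against 4615, 3721 and 5280 CPM.

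Genes of protein synthesis and respiration lay on the low side. Of 34 cytosolic ribosomal protein genes, 0 lay apart as higher and 12 as lower, with a median log2 fold change of -0.46. Rpl37 had 2924, 2502 and 2731 CPM in the controls and 1946, 741 and 1831 CPM in the 4T1 libraries (log2 fold change -0.96, adjusted p = 0.273), and Rplp1 had 2780, 2534 and 2687 CPM against 2150, 1523 and 2132 CPM (-0.58, 0.260). Reads of ribosomal protein genes can be shared with their processed copies. Library 35 was the lowest for both genes, and without it 13 members lay apart as lower and the median was -0.25. Without library 36, 19 lay apart as lower with a median of -0.66, and without control 1 the number was 17.

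Of 28 nuclear respiratory chain genes, 1 lay apart as higher and 7 as lower (median log2 fold change -0.34), and 13 lay apart as lower without control 1 or without library 36. Cox6c, a cytochrome c oxidase subunit gene, had 1353, 1155 and 1179 CPM in the controls and 893, 484 and 960 CPM in the 4T1 libraries (log2 fold change -0.77, adjusted p = 0.257), and Cox7c had 464, 579 and 627 CPM against 320, 377 and 460 CPM (-0.64, 0.225). Uqcrc1, the exception that was higher, had a log2 fold change of 0.56 (adjusted p = 0.256) and was chosen after its values were seen. Of 10 tested transcripts of the mitochondrial genome, 4 lay apart as lower and 0 as higher, with a median of -0.41. The small ribosomal RNA mt-Rnr1 had 25748, 19906 and 18393 CPM against 15425, 11431 and 10405 CPM (log2 fold change -0.91, adjusted p = 0.205).

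Skeletal muscle genes differed more between the controls than between the groups. Ttn, encoding titin, had 17.8, 323 and 292 CPM in the controls and 48.3, 132 and 46.0 CPM in the 4T1 libraries, and Neb, encoding nebulin, had 2.52, 181 and 160 CPM against 18.0, 32.6 and 14.0 CPM. Of 24 tested, 1 lay apart, Tnni2, at 19.9, 82.2 and 68.8 CPM against 12.4, 18.1 and 19.6 CPM (log2 fold change -1.87, adjusted p = 0.186), chosen after its values were seen. Without control 1, 17 of the 24 lay apart as lower, against 10.3% of all genes. With the muscle level as a covariate, 136 genes were called in all, 98 higher and 38 lower, in place of 5.

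The 4T1 scaffolds were also compared with the scaffolds of the other lines, each with its own test. Against 4T07 scaffolds, 232 genes were called, or 1.21% of those tested, 149 higher and 83 lower in 4T1 scaffolds. Of the 5 genes called against controls, Ifitm1 and Spon2 were also called against 4T07. Ifitm1 averaged 24.9 ± 5.99 CPM in the 4T07 scaffolds (SD, n = 3) and had a log2 ratio of 4T1 to 4T07 of 1.45 (standard error 0.30, adjusted p = 0.0497). Spon2 averaged 25.2 ± 3.29 CPM in the 4T07 scaffolds, and its log2 ratio of 4T1 to 4T07 was -1.53 (standard error 0.25, adjusted p = 0.0201). Per3 stood between the groups, with 17.6 ± 0.787 CPM in 4T07 scaffolds and a log2 ratio of 0.75 (standard error 0.16, adjusted p = 0.0514), which is under a 2-fold change. Slc39a2 had 25.4 ± 3.83 CPM in 4T07 scaffolds and 29.5 ± 2.77 CPM in 4T1 scaffolds (log2 ratio 0.25, adjusted p = 0.560), and Pik3r3 had a log2 ratio of 0.67 (adjusted p = 0.147). Of 21 adipocyte genes, 7 were called higher and 0 lower in 4T1 than in 4T07 scaffolds, among them Adipoq at 23.6 ± 2.25 CPM in 4T07 scaffolds (log2 ratio 2.07, standard error 0.31, adjusted p = 0.0145) and Pck1 2.63 higher in 4T1 scaffolds on the log2 scale (adjusted p = 0.0407). Lipe (log2 ratio 0.70, adjusted p = 0.246) and Lpl (0.26, 0.599) did not pass. Against the same controls, the adipocyte genes had a median log2 fold change of 0.58 for 4T1 and -0.91 for 4T07. For 4T07 scaffolds it was -1.48 for Adipoq (adjusted p = 0.00616) and -1.24 for Pck1 (0.121), so lower 4T07 levels enter this contrast. The count of 232 was 22 without 4T07 library 24, 33 without 4T07 library 23 and 105 without 4T1 library 36.

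Against 67NR scaffolds, 0 genes were called by edgeR (0%), the lowest adjusted p was 0.11, and 2076 genes had an unadjusted p under 0.05. The count was 3 without 4T1 library 35 and 7 without 4T1 library 36. The called genes lay on the same side as against controls. Ifitm1 averaged 17.6 ± 3.28 CPM in 67NR scaffolds (log2 ratio 1.88, adjusted p = 0.110), Spon2 24.7 ± 8.79 CPM (-1.58, 0.110), Slc39a2 67.0 ± 10.0 CPM (-1.23, 0.110) and Per3 15.1 ± 0.923 CPM (0.90, 0.134). Prg2 was at 0.918 ± 0.337 CPM in 67NR scaffolds and at 128 ± 141 CPM in 4T07 scaffolds, beside 42.0 ± 39.4 CPM in 4T1 scaffolds. Against the same controls, the 20 granule genes had a median log2 fold change of 2.65 for 4T1, 3.78 for 4T07 and 0.00 for 67NR. In the same order, the medians of erythroid genes were 1.68, 2.599 and 1.07, and those of cytotoxic cell genes -0.47, -0.54 and -0.30. Ribosomal protein genes had -0.46, -0.62 and -0.07, and clock genes 0.63, 0.43 and 0.04. The shifts of these lists were thus not all particular to 4T1 scaffolds. These comparisons share the control libraries, and the part of the controls in these medians was not tested.

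The effect of the 4T1 tumor was also taken in lungs and spleens, with all 36 libraries of the 3 tissues in one model, and the difference of the effects was tested as an interaction. The model treats the libraries as independent. Whether tissues came from the same mice is not given in the labels, so no pairing by mouse was used. The effect in scaffolds differed from that in lungs for 331 genes (1.73% of those tested at an adjusted p under 0.10) and from that in spleens for 4642 genes (24.2%). Ifitm1 rose in lungs and in spleens, with log2 fold changes of 2.81 (adjusted p = 8.89e-08) and 2.75 (adjusted p = 8.46e-08), and the effect in scaffolds did not pass as different from either (adjusted p = 0.710 and 0.384). Per3 had log2 fold changes of 0.84 in lungs (adjusted p = 0.00222, under a 2-fold change) and -0.28 in spleens, where the difference from scaffolds passed (adjusted p = 7.6e-04). Spon2 fell by 1.30 in lungs (adjusted p = 8.5e-04) and Slc39a2 fell by 1.12 (adjusted p = 0.00669). Pik3r3 had log2 fold changes of 0.44 in lungs and -0.84 in spleens, and the effect in scaffolds differed from both (adjusted p = 0.0941 and 2.18e-05).

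Neutrophil genes had smaller fold changes in scaffolds than in lungs and spleens in many cases. For the granule genes Ngp, Camp, Mpo and Ltf, the scaffold effect minus the lung effect was -3.81, -3.36, -1.57 and -0.95, and none of these differences passed (adjusted p = 0.122, 0.364, 0.829 and 0.869). For S100a8 the log2 fold change was 6.52 in lungs and 4.54 in spleens, beside 1.43 in scaffolds, and both differences passed (adjusted p = 1.24e-05 and 0.00125). Mmp9 likewise had 4.81 in lungs and 3.82 in spleens (adjusted p of the differences 1.24e-06 and 2.91e-05), and Cxcr2 had 5.52 and 2.87 (9.69e-07 and 0.00189). By list, the effect differed between scaffold and lung for 16 of 21 mature neutrophil genes and for 5 of 20 granule genes, against 1.73% of all genes, and between scaffold and spleen for 17 and 10 of them, against 24.2%. The lists share 4 genes, among them S100a8, S100a9 and Mmp9, and no test compared the lists with each other. The medians of the mature list were 0.61, 4.81 and 3.85 in scaffolds, lungs and spleens, and those of the granule list were 2.65, 4.95 and 5.03. Control 2, high for mature neutrophil genes, enters these scaffold values, and its part in the difference was not tested.

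**Figure D5:**
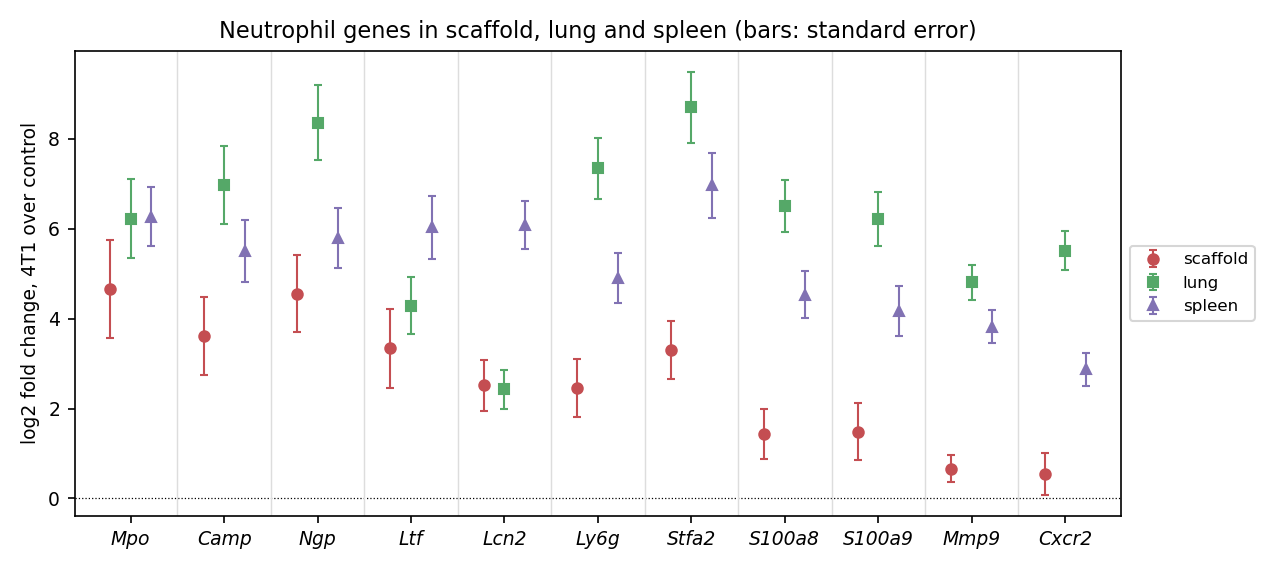
Log2 fold change (4T1 over control, with its standard error) of 11 neutrophil genes in scaffolds, lungs and spleens, 1 point per gene and tissue. All but Lcn2 have their smallest fold change in scaffolds, and the difference from lung passed its test for S100a8, S100a9, Mmp9, Ly6g, Cxcr2 and Stfa2 and not for Ngp, Camp, Mpo, Ltf and Lcn2.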

How the data were processed

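The authors deposited raw counts per gene symbol from 3' tag libraries with unique molecular identifiers. The submitters' processing notes name Trim Galore 0.5.0, STAR 2.6.0 and featureCounts, and the genome build, the annotation and the collapsing of identifiers are not given in the sources used here. Reads without collapsed identifiers are not independent molecules, and floors cover counting error only. Lines repeating a symbol (120 of 55487) were summed. Genes with more than 10 counts over the 6 libraries were tested with edgeR 4.0.16 (R 4.3.3, TMM, quasi-likelihood F test) in one model of the 12 scaffolds and 4 groups, and interactions in 36 libraries and 12 groups. Called means an adjusted p under 0.10 and a fold over 2. A standard error is the log2 fold change divided by the square root of F. An exact permutation test of 3 against 3 cannot go below p = 0.1 and was not run. Alternatives used DESeq2 1.42.0 and other filters, scalings, libraries and covariates. Named genes are up to 10 per direction called (or of lowest p) with no overlap and a mean of at least 5 CPM, the 9-gene signature, and of each list the called members and the 4 of highest CPM; other names are given as chosen after their values were seen. Members and lists were chosen with earlier results of these data known. The steps were tested on simulated data.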

Additional observations from a re-analysis of the deposited data

Results flagged for a closer look

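For these genes the difference of the 4T1 effect between scaffold and another tissue (log2 fold change in scaffold minus that in the other tissue, edgeR interaction, adjusted p under 0.10 over all genes) passed its test. Such a difference was found for 331 genes against lung and 4642 against spleen.

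Of 16 clock genes, 7 differed from spleen, against 24.2% of all genes, and 0 differed from lung, against 1.73%. The median log2 fold change of the list was 0.63 in scaffold, 0.51 in lung and -0.27 in spleen. The difference from spleen was 1.5 for Per3, 2.11 for Per2, 1.72 for Tef, 1.14 for Cry2, 1.55 for Nr1d2, 2.01 for Bhlhe41 and 0.91 for Clock. The log2 fold changes in spleen were -0.28, 0.38, -0.80, -0.21, -1.20, -1.56 and -1.23 in the same order. The falls of Tef, Nr1d2, Bhlhe41 and Clock in spleen had an adjusted p from 3.74e-07 to 0.00705 (edgeR). In scaffold, Clock had a log2 fold change of -0.32, and those of Nr1d2 (0.35) and Bhlhe41 (0.46) did not pass. For Spon2 the difference was -1.06. Pik3r3 differed from both tissues, by 0.97 from lung (adjusted p = 0.0941) and 2.25 from spleen.

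Neutrophil genes had smaller effects in scaffold. Against lung the differences were -5.41 for Stfa2, -5.09 for S100a8, -4.98 for Cxcr2, -4.91 for Ly6g, -4.74 for S100a9 and -4.15 for Mmp9. Against spleen they were -3.68 for Stfa2, -3.57 for Lcn2, -3.17 for Mmp9, -3.11 for S100a8, -2.7 for S100a9, -2.46 for Ly6g and -2.34 for Cxcr2.

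Adipoq differed by 2.46 from lung and 1.85 from spleen, Slc1a3 by 1.28 and 1.83, Slfn2 by -1.59 and -0.953 and the antiviral gene Rsad2 by -1.77 and -1.28. Gclc differed by 1.27 from lung (adjusted p = 0.074). Adipoq fell in lung, by 1.88 on the log2 scale (adjusted p = 0.00262).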

How the results depend on the processing

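The 5 calls became 65 with the DESeq2 Wald test (47 higher, 18 lower), 266 with no count filter (189 and 77), 9 with at least 10 counts in each library, 136 with a muscle covariate, 12 after thinning to the lowest library total and 0 with the 6 libraries alone, and were 1 to 30 with 1 library left out (1 without control 1 or control 3, 30 without control 2, 3 without library 35 and 29 without library 36). DESeq2, the test of the study, gave an adjusted p to 8382 of 19148 genes. All 5 genes stayed called under DESeq2, no filter, the 10-count filter, the muscle covariate and thinning. Among the 27 genes named for a call, a low p or the 9-gene signature the count was 12, 13, 8, 15, 12 and 0 in the same order of settings, and 1 to 14 with a library left out. Of the list members, 0 were called with the 6 libraries alone and 0 to 12 with a library left out. The 232 genes against 4T07 became 22 to 326 and the 0 against 67NR became 0 to 7 (these omissions were chosen after the data were seen), 331 against lung became 204 with only the 4 groups compared and 225 to 417 with a library left out, and 4642 against spleen became 3242 and 4005 to 4578. With a library left out, the log2 fold change of Ndufs1 ranged from -0.105 to 0.0017 (without control 3) and that of Epcam from -0.71 to 1.04 (without control 3; 0.12 without library 36, and 0.050 with the muscle covariate), and none of the other named genes turned. Of 376 list medians under the alternatives, 18 moved by more than the spread, in 12 of 47 lists, and the median turned sign in 21 lists with a library left out. Of 1469 values of 100 genes under the alternatives, 1337 kept their direction and their side of the threshold, 108 came to pass it and 20 ceased to. The cause was not tested. No paired analysis was possible because the groups share no replicate number in the labels. Depth limits genes near 0.472 CPM.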
